A study of Mus musculus with 6 samples.

Results

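The aminoacyl-tRNA synthetases described here are 35 genes of the 50763 in the deposited count table, chosen by symbol from a list of these enzymes: 19 whose enzymes charge tRNA in the cytosol and 16 whose enzymes charge it in the mitochondrial matrix. They were measured by RNA sequencing of poly(A) RNA from embryonic fibroblasts of the mouse, mesenchymal cells that leave a dissociated embryo and divide on plastic. The K68R group was 3 libraries from knock-in mice in which CRISPR put arginine in the place of lysine 68 of SOD2, which turns superoxide into hydrogen peroxide in the mitochondrial matrix. The WT group was 3 libraries from wild-type mice. Both groups had strain C57BL/6J in the labels, were taken at E13.5, a stage of midgestation, and were kept briefly in culture, and RNA of both had an integrity number above 4. The labels call the libraries of a genotype biological replicates, but give no embryo, litter or culture of origin, and so the p-values measure the spread between these libraries, which may be technical.

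An aminoacyl-tRNA synthetase joins an amino acid to its tRNA in an ATP-dependent reaction, and the charged tRNA is carried to the ribosome by an elongation factor. Animal cells make the cytosolic and the mitochondrial enzymes from separate nuclear genes for most amino acids, and the mitochondrial set serves the few proteins encoded by mitochondrial DNA, all of them parts of the respiratory chain and ATP synthase. Several cytosolic enzymes are held together in the multisynthetase complex by non-catalytic scaffold proteins. Uncharged tRNA activates the kinase GCN2, which phosphorylates the translation factor eIF2, and the transcription factor ATF4 that is then made is known to raise transcripts of many cytosolic synthetases together with genes of amino acid synthesis and transport.

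The promoters are shown because many of the cytosolic members are known ATF4 targets, so the letters that ATF4 and its C/EBP partners are known to bind can be read beside the levels. RefSeq windows of build GRCm38.p6, from 250 bases before to 50 bases after the annotated start, were found for 26 of the 35 members. The motif searched was TGATGNAA, the core of the C/EBP-ATF response element, on both strands. It was present in the windows of 5 of 12 cytosolic members (41.7%) and 0 of 14 mitochondrial members, against 3.97% of all 32851 windows. Its form TGATGCAA, which is contained in it, was present in 4 of the 12 cytosolic windows and none of the 14 mitochondrial ones, against 0.895% of all windows. The 5 cytosolic windows with the motif are printed first and the window of the mitochondrial alanyl enzyme, which has none, last. They are given 5′ to 3′ on the gene's own strand, with the motif in capitals, and TTGCATCA or TTTCATCA is the motif read on the opposite strand.
Aars1: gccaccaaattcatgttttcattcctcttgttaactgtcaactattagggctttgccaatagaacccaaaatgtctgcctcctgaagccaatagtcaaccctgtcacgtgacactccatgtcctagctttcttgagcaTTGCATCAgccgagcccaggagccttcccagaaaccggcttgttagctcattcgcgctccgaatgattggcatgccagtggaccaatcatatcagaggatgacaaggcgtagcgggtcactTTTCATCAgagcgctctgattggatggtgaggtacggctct
Gars1: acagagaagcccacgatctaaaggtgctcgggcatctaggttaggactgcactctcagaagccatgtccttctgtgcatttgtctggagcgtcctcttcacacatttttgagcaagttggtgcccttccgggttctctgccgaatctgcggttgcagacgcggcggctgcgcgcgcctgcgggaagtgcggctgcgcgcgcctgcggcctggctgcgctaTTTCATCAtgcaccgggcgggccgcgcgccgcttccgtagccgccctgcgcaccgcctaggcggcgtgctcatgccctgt
Iars1: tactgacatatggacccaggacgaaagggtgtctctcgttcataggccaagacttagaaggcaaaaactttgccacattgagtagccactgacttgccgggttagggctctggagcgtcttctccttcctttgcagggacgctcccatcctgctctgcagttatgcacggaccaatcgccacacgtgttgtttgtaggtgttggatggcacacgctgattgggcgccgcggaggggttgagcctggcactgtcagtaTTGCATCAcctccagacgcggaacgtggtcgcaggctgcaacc
Tars1: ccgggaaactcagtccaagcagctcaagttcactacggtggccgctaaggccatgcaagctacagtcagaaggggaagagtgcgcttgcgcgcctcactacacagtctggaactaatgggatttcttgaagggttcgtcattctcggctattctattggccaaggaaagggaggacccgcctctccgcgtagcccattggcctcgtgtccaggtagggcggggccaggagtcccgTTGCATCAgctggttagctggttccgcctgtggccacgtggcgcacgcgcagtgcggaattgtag
Yars1: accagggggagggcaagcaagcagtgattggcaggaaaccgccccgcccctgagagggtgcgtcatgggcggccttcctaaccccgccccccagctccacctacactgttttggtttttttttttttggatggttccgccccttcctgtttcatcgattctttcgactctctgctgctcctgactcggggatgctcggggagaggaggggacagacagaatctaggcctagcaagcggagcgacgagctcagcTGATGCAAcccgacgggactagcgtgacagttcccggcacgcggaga
Aars2: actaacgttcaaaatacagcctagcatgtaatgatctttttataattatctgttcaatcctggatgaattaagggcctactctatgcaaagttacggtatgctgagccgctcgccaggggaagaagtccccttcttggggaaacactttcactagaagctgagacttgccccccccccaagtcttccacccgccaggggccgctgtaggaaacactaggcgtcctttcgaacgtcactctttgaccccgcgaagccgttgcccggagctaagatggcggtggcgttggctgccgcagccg

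The Aars1 window (chr8:111033592-111033891, plus strand) held 2 copies, 1 starting 112 bases before the annotated start and 1 lying 10 bases after it. The Gars1 window (chr6:55037751-55038050, plus strand) held the motif 30 bases before the start, and was the only one of the 5 without the full TGATGCAA. In the Iars1 window (chr13:49681880-49682179, plus strand) it lay 8 bases after the start. The Tars1 window (chr15:11399609-11399908, minus strand) had it 15 bases before the start, and the Yars1 window (chr4:129189653-129189952, plus strand) 4 bases after the start. The Aars2 window is chr17:45506582-45506881 on the plus strand. A match is a description of the letters, and no match says nothing about what binds there.

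Across the whole table the genotypes differed at most genes. Read pairs assigned to genes totalled 26200088, 31738219 and 31330555 in the K68R libraries and 40691447, 30856781 and 32994101 in the WT libraries, so that 3 counts, taken as the floor, were worth 0.0728 to 0.116 CPM, the unit of scaled counts used throughout. Of 16730 genes tested, 13613 (81.4%) passed a Benjamini-Hochberg adjusted p of 0.05 in edgeR's quasi-likelihood test, 40.8% higher and 40.5% lower in K68R. A smooth surface over exon length and GC content took 39.4% of the variance of the log2 fold changes over 15657 genes. Members are therefore also given after offsets for exon length and GC content had entered the model, under which 75.7% of genes were called, 33.6% higher and 42.1% lower. A second version, chosen after seeing the data, took the length of the longest coding transcript in place of all exons, with the same GC values, and called 75.2% of genes, 32.8% higher and 42.4% lower. Where 2 values follow as those with the offsets, the exon version comes first. With an offset for exon length alone the split was 5307 higher and 8154 lower genes, against 6833 and 6780 without it. Sod2 averaged 47.2 ± 1.62 CPM in K68R cells and 69.96 ± 1.58 CPM in WT cells (SD, n = 3 each), a log2 fold change of -0.57, and these counts do not read the substitution itself. All 10 fibroblast markers were detected, with summed levels of 17970 to 18020 CPM in K68R libraries and 7551 to 7662 CPM in WT libraries, but 5 of them were higher, 4 lower and 1 not called. Fn1 (4.21), Col1a1 (3.89) and Col1a2 (1.98) were higher on the log2 scale, whereas Pdgfra (-2.48), Lum (-2.14), Dcn (-2.12) and Thy1 (-1.62) were lower. With the offsets Fn1 was at 2.75 and 1.87, Col1a1 at 1.46 and 0.56, and Col1a2 at 0.47 and -0.04, the last called lower. Pdgfra, Lum, Dcn and Thy1 stayed lower with both. Of the 10 markers, 5 were higher and 5 lower with the first offsets, and 3 higher and 6 lower with the second.

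Other cell states moved with genotype as well, and their part in the results that follow was not tested. Beside the marker counts given here, 40.8% of all genes tested were higher and 40.5% lower. Of 10 proliferation genes 9 were lower and 1 was higher in K68R, and their sum ran from 1108 to 1123 CPM in K68R libraries and from 2394 to 2403 CPM in WT libraries. All 6 adipocyte markers were lower (sums 59.4 to 63.9 CPM in K68R, 228 to 241 CPM in WT), and all 6 skeletal muscle markers tested were higher (sums 141 to 144 CPM in K68R, 39.1 to 42.2 CPM in WT). All 6 epithelial markers were lower (sums 18.4 to 20.5 CPM in K68R, 46.0 to 47.6 CPM in WT), and of 5 endothelial markers tested 2 were higher (sums 96.1 to 97.9 CPM in K68R, 24.7 to 27.2 CPM in WT). Most of the endothelial sum was Kdr, with means of 90.7 CPM in K68R cells and 20.4 CPM in WT cells, and Pecam1, Cdh5 and Tek were not called. Macrophage markers comprised 4 higher and 2 lower of 10 (sums 159 to 164 CPM in K68R, 165 to 167 CPM in WT). None of the listed markers was at 0 in all libraries. In bulk RNA, fewer cells of a type and less RNA per cell cannot be told apart.

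All 35 synthetase genes passed the filter on low counts, with 128 to 23238 counts in a library. Of the 35, 26 were lower, 6 higher and 3 not called, against the background of 40.5% lower and 40.8% higher. Their median log2 fold change was -0.23, beside -0.0071 for all genes tested. Most of these differences were small. Against a bound of 1.5-fold, which 41.0% of all genes passed, 14.9% downwards and 26.1% upwards, 5 members were lower (Farsb, Rars1, Nars1, Lars1 and Rars2) and 4 higher (Vars1, Aars2, Vars2 and Lars2). The K68R libraries lay wholly below the WT libraries at 27 members and wholly above at 6, against 41.0% and 41.3% of all genes tested. Libraries of a genotype lay close together: leaving Lars2 aside, the coefficient of variation over 3 libraries had a median of 2.36% in K68R and 2.25% in WT.

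Levels set the compartments apart in both genotypes. Per kilobase of exon, cytosolic members had a median mean level of 45.4 CPM in K68R cells (range 11.5 to 133) and 47.6 CPM in WT cells (range 3.02 to 216). Mitochondrial members had a median of 5.57 CPM per kilobase in K68R cells (range 0.734 to 27.7) and 5.18 in WT cells (range 0.889 to 23.3). Nars1, which charges asparagine tRNA, was the highest in WT cells, and Nars2, its mitochondrial counterpart, the lowest. In WT cells every cytosolic member but Vars1 lay above every mitochondrial member but Yars2 and Iars2 on this scale. Vars1 stood at 19.8 ± 0.0957 CPM per kilobase in K68R cells, against 3.02 ± 0.0839 in WT cells (SD, n = 3 each). Lars2 was the highest mitochondrial member in K68R cells at 27.7 ± 5.88 CPM per kilobase, against 6.25 ± 0.589 in WT cells.

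**Figure D1:**
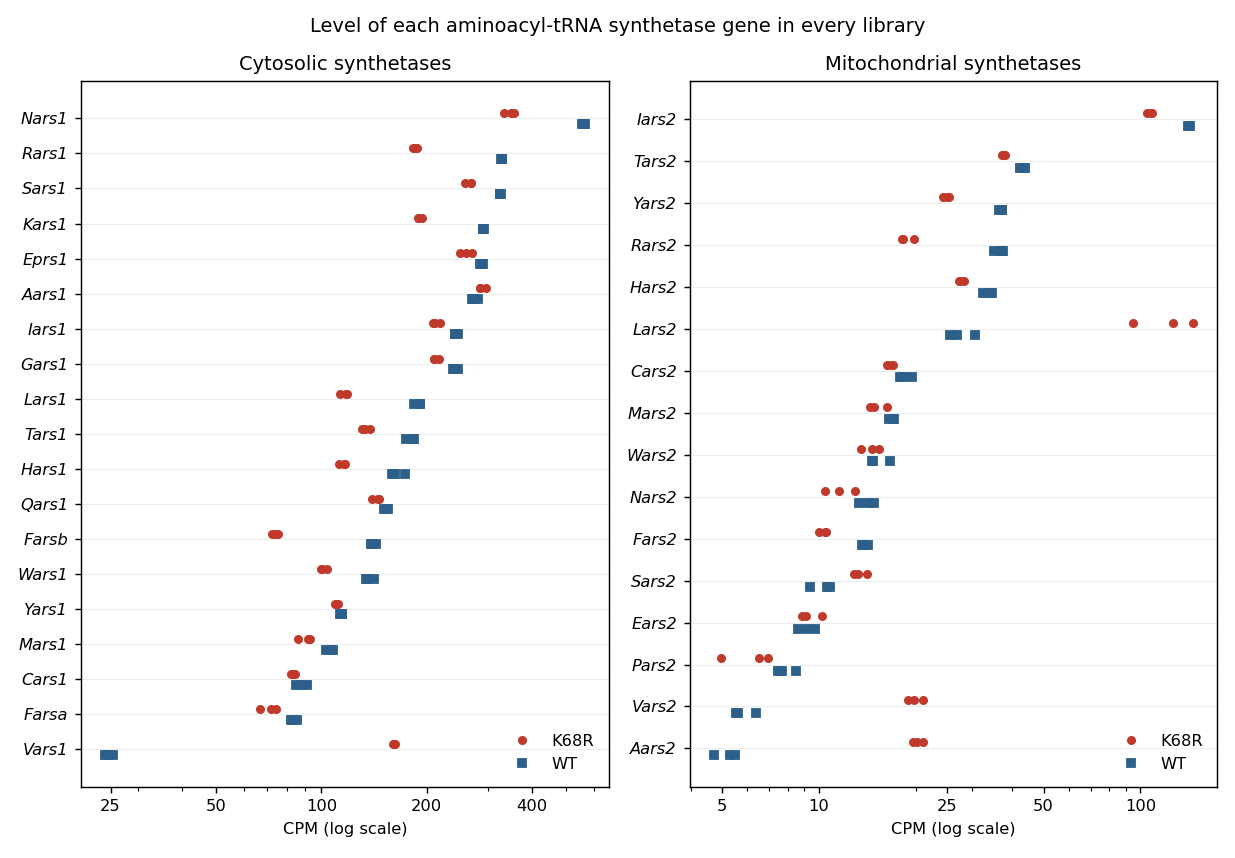
Level of each of the 19 cytosolic (left) and 16 mitochondrial (right) synthetase genes in CPM, on a log axis, with 1 point per library, K68R as red circles and WT as blue squares, sorted by the WT mean. Most rows have the K68R points to the left of the WT points, while Vars1, Aars2, Vars2 and Lars2 have them far to the right.

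Cytosolic synthetase transcripts were mostly lower in K68R cells. Of the 19 members 16 were lower, 2 higher and 1 not called, with a median log2 fold change of -0.24. The shares over all genes tested were 40.5% lower and 40.8% higher. With exon length and GC offsets 15 were lower, 1 higher and 2 not called of the 18 with a GC value, and the median was -0.36. With transcript length and GC offsets 17 were lower and none higher, with 1 not called, and the median was -0.40. The median moved to -0.35 under upper quartile scaling, which shifted the median of all genes to -0.12.

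The largest decrease was at Farsb (chr1:78394593-78465530 in mm39, minus strand), the beta subunit of cytosolic phenylalanyl-tRNA synthetase. Farsb had 72.3, 75.2 and 73.9 CPM in K68R cells and 139, 139.9 and 143 CPM in WT cells. The ranges were far apart, and the transcript was 1.90-fold lower (log2 fold change -0.93 ± 0.03 SE, edgeR adjusted p = 7.87e-41), also with exon length and GC offsets (-0.96) and transcript length and GC offsets (-0.59). Farsa, the alpha subunit of the same enzyme, had 74.0, 72.0 and 66.8 CPM in K68R cells and 85.0, 83.6 and 81.9 CPM in WT cells. Its decrease was smaller, 1.18-fold (-0.24 ± 0.03 SE, edgeR adjusted p = 2.20e-09), without overlap of the libraries, and -0.31 and -0.40 with the offsets. The ratio of Farsb to Farsa was 0.976, 1.05 and 1.11 in K68R libraries and 1.63, 1.67 and 1.74 in WT libraries, a log2 difference of -0.69. The difference shrank to -0.19 with transcript length and GC offsets, and the two-sided exact permutation p was 0.1, the smallest that 20 assignments of 6 libraries allow. Of Farsb exons 4.18% are shared with Sgpp2 on the opposite strand, and the counting used no strand.

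Rars1, the arginyl enzyme, had 186, 187 and 183 CPM in K68R cells and 328, 328 and 327 CPM in WT cells. It was 1.77-fold lower (-0.82 ± 0.02 SE, edgeR adjusted p = 3.86e-45), and -0.45 with exon length and GC offsets and -0.48 with transcript length and GC offsets. Nars1, the asparaginyl enzyme, had 349, 355 and 333 CPM in K68R cells and 564, 565 and 557 CPM in WT cells. It was 1.63-fold lower (-0.70 ± 0.02 SE, edgeR adjusted p = 3.76e-42), and was -0.78 with an offset for exon length alone, while its symbol matched no GC value for the other offsets. Lars1, the leucyl enzyme and a proposed sensor of leucine for mTORC1, had 117, 118 and 113 CPM in K68R cells and 184, 191 and 191 CPM in WT cells. Its decrease of 1.62-fold (-0.70 ± 0.03 SE, edgeR adjusted p = 1.51e-36) was -0.57 and -0.61 with the offsets. These 4 genes were the cytosolic members past the 1.5-fold bound downwards.

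Kars1, the lysyl enzyme, which serves both compartments from a single gene, had 194, 189.7 and 189 CPM in K68R cells and 292, 289 and 290.5 CPM in WT cells. The groups stood apart by a factor of 1.52, which did not pass the test against 1.5-fold (edgeR adjusted p = 0.138), although the gene was called lower (-0.61 ± 0.02 SE), also with the offsets (-0.39 and -0.40). Gars1, the glycyl enzyme, also serves both compartments, and had 209, 217 and 209 CPM in K68R cells and 245, 237 and 239.5 CPM in WT cells. It was called lower at -0.18 ± 0.02 SE, with groups not overlapping, yet was called higher at 0.06 with exon length and GC offsets (edgeR adjusted p = 0.0143), and not called at 0.02 with transcript length and GC offsets.

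Hars1, the histidyl enzyme, was 1.44-fold lower, with 117, 116 and 112 CPM in K68R cells and 173, 162 and 159.5 CPM in WT cells. Wars1, the tryptophanyl enzyme, which interferon is known to raise, was 1.35-fold lower with means of 101 ± 2.06 CPM in K68R cells and 137 ± 3.87 CPM in WT cells (SD, n = 3 each). Tars1, the threonyl enzyme, was also 1.35-fold lower, averaging 134 ± 3.37 CPM in K68R cells and 181 ± 4.81 CPM in WT cells. All 3 stayed lower with both offsets, Hars1 at -0.20 and -0.25, Wars1 at -0.56 and -0.64, and Tars1 at -0.14 and -0.32.

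The remaining 6 decreases were at most 1.23-fold. Sars1, the seryl enzyme, averaged 264.5 ± 5.76 CPM in K68R cells and 325 ± 0.775 CPM in WT cells, and Iars1, the isoleucyl enzyme, 213 ± 5.50 CPM in K68R cells and 243 ± 2.30 CPM in WT cells (SD, n = 3 each). Mars1, the methionyl enzyme, averaged 90.2 ± 3.75 CPM in K68R cells and 106 ± 2.46 CPM in WT cells, and shares 1.52% of its exonic bases with Ddit3 on the opposite strand. Eprs1, a fused glutamyl and prolyl enzyme, averaged 259 ± 9.97 CPM in K68R cells and 287 ± 2.67 CPM in WT cells. Qars1, the glutaminyl enzyme, averaged 144 ± 3.37 CPM in K68R cells and 153 ± 2.46 CPM in WT cells, with a log2 fold change of -0.10. It was not called at 0.02 with exon length and GC offsets, and called lower at -0.12 with transcript length and GC offsets. Cars1, the cysteinyl enzyme, averaged 82.8 ± 1.24 CPM in K68R cells and 87.9 ± 3.18 CPM in WT cells, and its call at -0.09 was lost without WT replicate 1, by DESeq2 and under a filter of 1 CPM. In each of these 6 genes the K68R libraries lay below all WT libraries. With the offsets, Sars1 was at -0.60 and -0.69, Iars1 at -0.17 and -0.26, Mars1 at -1.02 and -0.51, Eprs1 at -0.26 and -0.23, and Cars1 at -0.71 and -0.46.

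Yars1, the tyrosyl enzyme, was the cytosolic member not called (-0.04 ± 0.03 SE, edgeR adjusted p = 0.146). It had 109, 111 and 112 CPM in K68R cells and 115, 114 and 113 CPM in WT cells, so the groups lay close together without overlapping. It was called lower without WT replicate 3, at -0.07, with an offset for exon length alone, at -0.11, and with transcript length and GC offsets, at -0.16 (edgeR adjusted p = 5.03e-07). With exon length and GC offsets it was not called, at 0.03.

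Only Vars1 and Aars1 were called higher among the cytosolic members, and neither kept that direction with the offsets that include GC content. Vars1, the valyl enzyme, which is known to bind elongation factor 1, had 161, 160.3 and 162 CPM in K68R cells and 24.6, 25.4 and 24.1 CPM in WT cells. This was the widest gap of all members, 6.54-fold (2.71 ± 0.03 SE, edgeR adjusted p = 7.10e-65). Vars1 lies at chr17:35219895-35235304 of mm39. Its exons have 8161 bases in the table and its transcript 60.9% GC, and with an offset for exon length alone it stayed called higher at 1.92. With exon length and GC offsets its log2 fold change was -0.34, and with transcript length and GC offsets -0.25, both called lower. Aars1, the alanyl enzyme, had 294.5, 284 and 285 CPM in K68R cells and 269.7, 279.9 and 271 CPM in WT cells. The groups did not overlap, but the difference was 1.05-fold (0.07 ± 0.02 SE, edgeR adjusted p = 1.68e-03). It was -0.04 under upper quartile scaling, -0.57 with offsets for exon length alone, -1.96 with exon length and GC offsets and -2.39 with transcript length and GC offsets, and its call was lost without WT replicate 1 (0.05), without WT replicate 3 (0.05) and without the filter on low counts (0.03). Of Aars1 exonic bases 19.97% are shared with Exosc6 on the same strand in the annotation used.

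**Figure D2:**
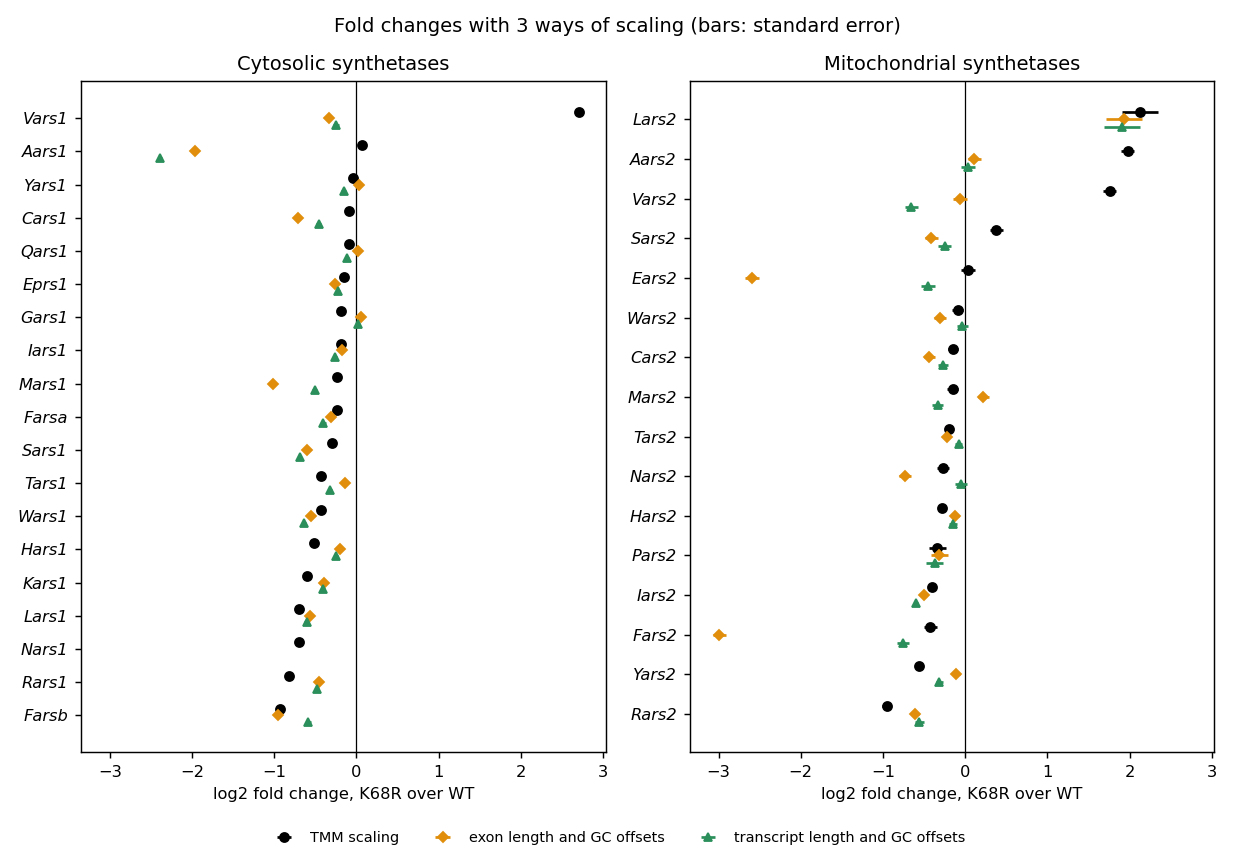
Log2 fold change, K68R over WT, of each cytosolic (left) and mitochondrial (right) member, with black circles for TMM scaling, orange diamonds for exon length and GC offsets and green triangles for transcript length and GC offsets, and bars for the standard error. Vars1, Aars2 and Vars2 lay at 2.71, 1.98 and 1.76 with TMM scaling and near or below 0 with the offsets, while Lars2 stayed near 2 with all 3.

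Grouped by complex, the 7 synthetases of the multisynthetase complex (Eprs1, Iars1, Kars1, Lars1, Mars1, Qars1 and Rars1) were all called lower, with a median of -0.23 and a range from -0.82 to -0.10. With exon length and GC offsets 6 were lower and Qars1 was not called. Their summed level was 1180 to 1222 CPM in K68R libraries and 1594 to 1597 CPM in WT libraries. The 12 cytosolic members outside the complex were 9 lower, 2 higher and 1 not called, with a median of -0.27. The 3 scaffold proteins that hold the complex together were lower as well. Aimp1 averaged 58.4 ± 2.98 CPM in K68R cells and 109.8 ± 3.52 CPM in WT cells (SD, n = 3 each), 1.88-fold lower. Aimp2 averaged 39.7 ± 1.63 CPM in K68R cells and 67.5 ± 0.515 CPM in WT cells, 1.70-fold lower, and Eef1e1 49.9 ± 0.60 CPM in K68R cells and 77.6 ± 0.712 CPM in WT cells, 1.56-fold lower. With the offsets their log2 fold changes were -0.44 and -0.46 (Aimp1), -0.34 and -0.46 (Aimp2), and -0.12 and -0.29 (Eef1e1). By catalytic fold, class I members were 13 lower, 3 higher and 3 not called, and class II members 13 lower and 3 higher. The fused Eprs1 was counted in class I only. For all counts in this grouping, the shares over all genes tested were 40.5% lower and 40.8% higher.

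Mitochondrial synthetase transcripts moved in both directions. Of the 16 members 10 were lower, 4 higher and 2 not called, with a median log2 fold change of -0.18. The shares over all genes tested were 40.5% lower and 40.8% higher. With exon length and GC offsets 12 members were lower, 2 higher and 2 not called, with a median of -0.31. With transcript length and GC offsets 11 were lower, 1 higher and 4 not called, with a median of -0.29. Without Lars2 the median was -0.20.

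Rars2, the mitochondrial arginyl enzyme (chr4:34614941-34660167 in mm39), fell furthest. It had 18.1, 19.7 and 18.3 CPM in K68R cells and 34.98, 36.8 and 37.4 CPM in WT cells. The transcript was 1.94-fold lower (-0.96 ± 0.05 SE, edgeR adjusted p = 7.20e-27), and -0.61 and -0.56 with the offsets. Yars2, the tyrosyl enzyme, had 25.1, 25.4 and 24.3 CPM in K68R cells and 36.4, 37.2 and 37.2 CPM in WT cells, 1.48-fold lower (-0.57 ± 0.05 SE, edgeR adjusted p = 1.12e-17). With the offsets Yars2 was at -0.12 and -0.31. Iars2, the isoleucyl enzyme, had 108, 108 and 105 CPM in K68R cells and 141, 143 and 141 CPM in WT cells, 1.32-fold lower (-0.40 ± 0.03 SE, edgeR adjusted p = 1.36e-22). It was -0.50 and -0.60 with the offsets, and 3.57% of its exonic bases are shared with genes of the opposite strand.

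Fars2, the single-chain mitochondrial phenylalanyl enzyme, had 10.03, 10.4 and 10.6 CPM in K68R cells and 13.8, 13.6 and 14.3 CPM in WT cells, 1.34-fold lower. Its exons add to 12531 bases in the table, whereas the longest transcript matched has 2125 bases, and its log2 fold change was -0.42 without offsets, and -2.99 and -0.75 with them. Pars2, the prolyl enzyme, was the member with the fewest counts, at 4.96, 6.96 and 6.55 CPM in K68R cells and 7.67, 8.48 and 7.49 CPM in WT cells. Its call (-0.34 ± 0.10 SE, edgeR adjusted p = 2.03e-03) was lost without K68R replicate 1, where it was -0.22. Hars2, the histidyl enzyme, averaged 27.8 ± 0.487 CPM in K68R cells and 33.7 ± 1.05 CPM in WT cells, and Tars2, the threonyl enzyme, 37.5 ± 0.344 CPM in K68R cells and 43.2 ± 0.847 CPM in WT cells (SD, n = 3 each). Both were called lower, at -0.28 and -0.20. With the offsets Pars2 was at -0.32 and -0.37, Hars2 at -0.12 and -0.14, and Tars2 at -0.22 and -0.08, the last not called.

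Nars2, the asparaginyl enzyme, averaged 11.7 ± 1.22 CPM in K68R cells and 14.1 ± 0.746 CPM in WT cells (-0.27 ± 0.07 SE, edgeR adjusted p = 7.50e-04). Its value was -0.73 with exon length and GC offsets and -0.05, not called, with transcript length and GC offsets. Its exons add to 15898 bases and its longest coding transcript has 3778. Mars2, the methionyl enzyme, averaged 15.2 ± 0.988 CPM in K68R cells and 16.9 ± 0.284 CPM in WT cells, and Cars2, the cysteinyl enzyme, 16.7 ± 0.352 CPM in K68R cells and 18.6 ± 0.873 CPM in WT cells. Both were called lower at -0.15 with edgeR, and neither was called by DESeq2. Cars2 was at -0.43 and -0.27 with the offsets. Mars2 was called higher at 0.22 with exon length and GC offsets, was called lower at -0.34 with transcript length and GC offsets, and lost its call without K68R replicate 1, without K68R replicate 3 or without WT replicate 1, and Cars2 lost its call without K68R replicate 1 or WT replicate 3.

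The mitochondrial members not called were Ears2 and Wars2. Ears2, the glutamyl enzyme, had 8.87, 9.13 and 10.2 CPM in K68R cells and 9.22, 9.72 and 8.62 CPM in WT cells, with overlapping groups (0.04 ± 0.08 SE, edgeR adjusted p = 0.688). It was -2.60 with exon length and GC offsets, where its exons count 7769 bases, and -0.45 with transcript length and GC offsets, where its longest transcript counts 2046 bases. Wars2, the tryptophanyl enzyme, had 15.4, 13.53 and 14.6 CPM in K68R cells and 16.7, 14.7 and 14.7 CPM in WT cells (-0.09 ± 0.07 SE, edgeR adjusted p = 0.223). These groups overlapped too, and Wars2 was at -0.31, called lower, and -0.03 with the offsets.

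Aars2, Vars2, Lars2 and Sars2 were the mitochondrial members called higher. Aars2, the alanyl enzyme, had 19.6, 21.1 and 20.2 CPM in K68R cells and 5.29, 5.50 and 4.71 CPM in WT cells, 3.93-fold higher (1.98 ± 0.08 SE, edgeR adjusted p = 3.59e-34). Vars2, the valyl enzyme, had 21.1, 19.0 and 19.7 CPM in K68R cells and 6.38, 5.63 and 5.55 CPM in WT cells, 3.38-fold higher (1.76 ± 0.08 SE, edgeR adjusted p = 1.39e-31). Sars2, the seryl enzyme, had 13.2, 12.9 and 14.1 CPM in K68R cells and 10.6, 10.8 and 9.43 CPM in WT cells, 1.30-fold higher (0.38 ± 0.08 SE, edgeR adjusted p = 7.51e-06). With an offset for exon length alone all 3 stayed called higher (1.61, 1.34 and 0.37), but none kept that call with the offsets that include GC content. Aars2 was not called with either (0.11 and 0.03), Vars2 was at -0.06 and -0.66, the second called lower, and Sars2 was called lower with both (-0.41 and -0.25).

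Vars1, Vars2 (chr17:35966526-35978531) and Aars2 (chr17:45817473-45831769) were the 3 members on chromosome 17, which also holds Sod2 (chr17:13226726-13237006, all in mm39). Of the 789 genes tested on that chromosome 45.8% were higher and 38.02% lower, against 40.6% and 40.65% of the 15941 genes on others. This position was noticed after the values were seen, and its part in the result was not tested.

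Lars2, the mitochondrial leucyl enzyme (chr9:123196001-123291731 in mm39), was the exception. It had 146, 94.7 and 126 CPM in K68R cells and 30.5, 25.5 and 26.8 CPM in WT cells, with groups far apart and K68R replicate 2 the lowest of its group. It was 4.38-fold higher (2.13 ± 0.22 SE, edgeR adjusted p = 6.74e-04), and stayed called higher with the exon length and GC offsets (1.93) and the transcript length and GC offsets (1.91). Its coefficient of variation was 21.2% in K68R libraries and 9.43% in WT libraries, above that of every other member in both genotypes. Gm15564, a predicted gene chosen after its values were seen, followed the same order over the K68R libraries, with 9.49, 5.74 and 8.43 CPM in K68R cells and 0.849, 0.576 and 0.627 CPM in WT cells (3.49 ± 0.19 SE). A second such gene, Gm26917, also followed that order, with a narrower spread, at 165.5, 155 and 157 CPM in K68R cells and 128, 128 and 126 CPM in WT cells. Gm15564 stayed called higher with the offsets (3.81 and 4.02), whereas Gm26917 was called lower with both (-1.88 and -4.32). The part of these genes in the result for Lars2 was not tested.

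Summed over genes, the cytosolic members came to 3160, 3205 and 3106 CPM in K68R libraries and 3938, 3938 and 3913 CPM in WT libraries, a ratio of means of 0.803. Without Vars1 the cytosolic ratio was 0.767. The mitochondrial members summed to 497, 452 and 479 CPM in K68R libraries and 440.2, 437 and 433 CPM in WT libraries, a ratio of 1.09. Without Lars2 they summed to 351, 357 and 353 CPM in K68R libraries and 409.6, 411 and 406 CPM in WT libraries, a ratio of 0.864. So the mitochondrial sum lay above WT in every K68R library with Lars2 and below WT in every K68R library without it. The cytosolic sum over the mitochondrial sum was 6.36, 7.09 and 6.48 in K68R libraries and 8.95, 9.02 and 9.03 in WT libraries. Without Vars1 and Lars2 it was 8.55, 8.53 and 8.34 in K68R libraries and 9.55, 9.51 and 9.57 in WT libraries. Both forms of the ratio were lower in all K68R libraries than in any WT library.

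The comparison of cytosolic with mitochondrial enzymes was then made amino acid by amino acid, as the CPM of the cytosolic gene over that of its mitochondrial counterpart in each library, which does not depend on library scaling. The phenylalanyl subunits shared Fars2, and Eprs1 was set against both Ears2 and Pars2. Of 17 pairs, 10 had a lower and 7 a higher mean log2 ratio in K68R. In 8 pairs all K68R ratios lay below all WT ratios, in 6 they lay above, and in 3 the groups overlapped. Levels of single genes lay apart as readily, with K68R wholly below at 41.0% of all genes tested and wholly above at 41.3%. The share for ratios of other gene pairs was not computed. The two-sided exact permutation p of each of the 14 pairs without overlap was 0.1, the smallest this design allows, and 0.121 after Benjamini-Hochberg adjustment over the 17 pairs, so no pair could pass 0.05.

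Leucine gave the widest difference. The ratio of Lars1 to Lars2 was 0.802, 1.25 and 0.897 in K68R libraries and 6.02, 7.49 and 7.11 in WT libraries, a log2 difference of -2.82, made of a lower Lars1 and a higher Lars2. It was -2.50 and -2.51 with the offsets. For alanine the ratio of Aars1 to Aars2 was 14.99, 13.48 and 14.1 in K68R libraries and 51.0, 50.9 and 57.6 in WT libraries. That log2 difference of -1.89 was -2.06 and -2.41 with the offsets, where Aars1 was called lower and Aars2 was not called. For serine the ratio of Sars1 to Sars2 averaged 19.8 ± 1.35 in K68R libraries and 31.7 ± 2.37 in WT libraries (SD, n = 3 each). The serine difference was -0.68, and -0.19 and -0.44 with the offsets.

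In the other direction, the valine ratio of Vars1 to Vars2 was 7.64, 8.45 and 8.20 in K68R libraries and 3.85, 4.52 and 4.34 in WT libraries, a log2 difference of 0.95 that was -0.28 with exon length and GC offsets and 0.40 with transcript length and GC offsets. The tyrosine ratio of Yars1 to Yars2 was 4.36, 4.37 and 4.59 in K68R libraries and 3.16, 3.07 and 3.03 in WT libraries, a log2 difference of 0.52 that kept its direction with both offsets (0.14 and 0.16). Arginine, for which both enzymes fell by nearly the same factor, had ratios of 9.91 ± 0.394 in K68R libraries and 9.004 ± 0.341 in WT libraries, a log2 difference of 0.14. Cysteine, glutamate and methionine were the pairs with overlapping ratios. With either offset 8 of the 16 pairs with a value had a lower ratio, and 5 pairs changed direction under at least 1 of them, so no common direction of cytosolic against mitochondrial enzymes held across amino acids.

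**Figure D3:**
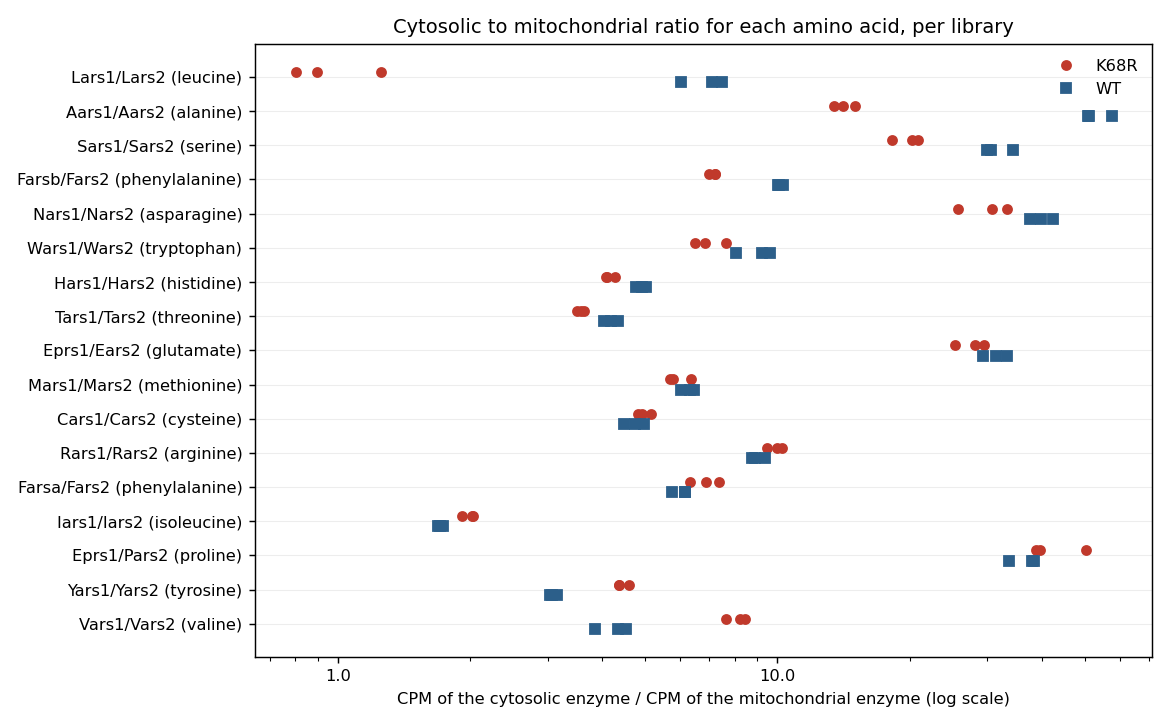
CPM of the cytosolic enzyme over CPM of the mitochondrial enzyme for 17 pairs, on a log axis, with 1 point per library, K68R drawn above WT in each row. Leucine and alanine have K68R ratios far below WT, valine and tyrosine have them above, and 3 pairs overlap.

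Of the 6 members that rose 4 had GC-rich transcripts. With a bound of 58% GC, chosen after seeing the values, 5 members lay above it: Vars1, Aars2, Ears2, Sars2 and Vars2. Of these 4 were higher, none lower and 1 not called, with a median log2 fold change of 1.76. Of the 29 members below the bound 25 were lower, 2 higher (Aars1 and Lars2) and 2 not called, with a median of -0.27. Among the 15657 genes with a GC value, of 1636 genes above the bound 72.0% were higher and 15.7% lower (median 1.19), and of 14021 genes below it 36.7% were higher and 45.0% lower (median -0.10). The members' shares were not tested against these. Over the 34 members with a GC value, Spearman's rho of the log2 fold change with GC content was 0.59, and over 15657 genes it was 0.35. These are descriptions, since the genes share the same 6 libraries. Each genotype has its own libraries and the labels name no batch, so genotype and library cannot be told apart here.

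**Figure D4:**
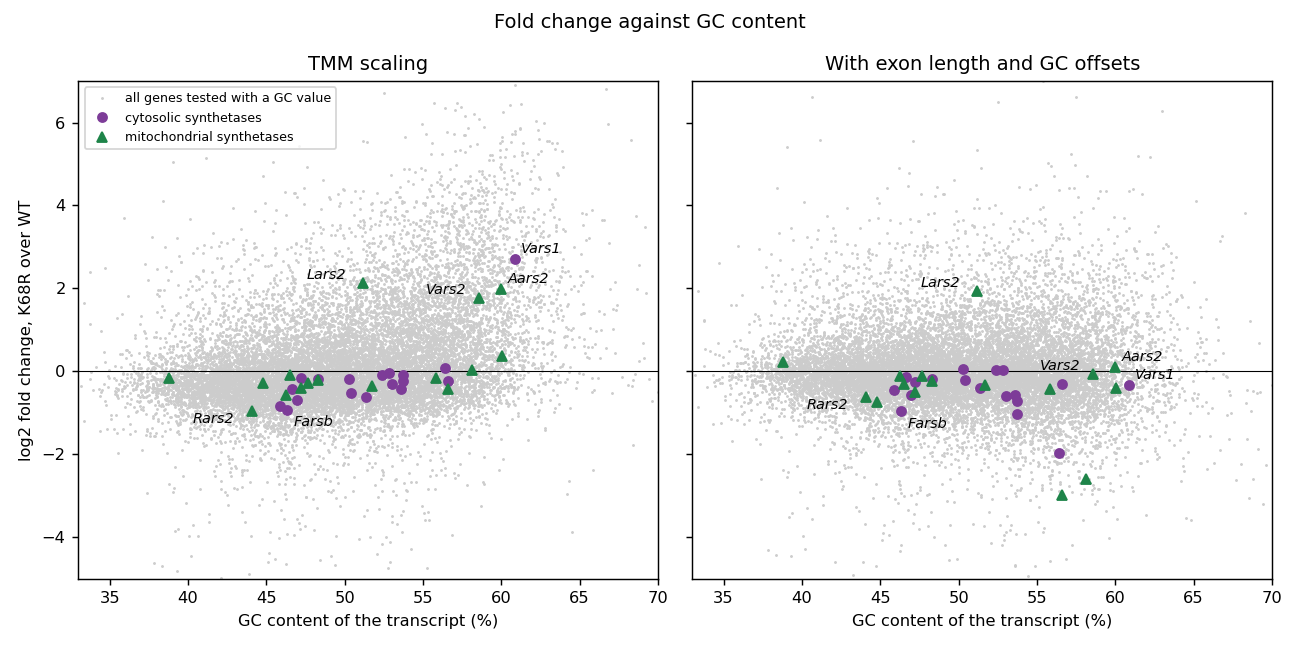
Log2 fold change, K68R over WT, against GC content of the transcript (%), with TMM scaling (left) and with exon length and GC offsets (right), grey points for all genes with a GC value, purple circles for cytosolic and green triangles for mitochondrial members, and a few genes outside the axes. On the left Vars1, Aars2 and Vars2 stand with the GC-rich genes that were higher in K68R, and on the right Lars2 is the member that stays near 2.

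Genes that act on or use charged tRNA were mostly lower too. Mitochondria lack a glutaminyl-tRNA synthetase and make that charged tRNA with an amidotransferase of subunits Qrsl1, Gatb and Gatc, and Mtfmt formylates the initiator methionyl-tRNA. All 4 genes were called lower, beside 40.5% of all genes tested, with a median log2 fold change of -0.58. Gatc averaged 20.1 ± 1.10 CPM in K68R cells and 31.9 ± 0.632 CPM in WT cells, Qrsl1 9.04 ± 0.468 CPM in K68R cells and 16.1 ± 0.559 CPM in WT cells, and Mtfmt 16.0 ± 0.778 CPM in K68R cells and 18.1 ± 0.688 CPM in WT cells (SD, n = 3 each). With the offsets Gatc was at -0.28 and -0.34, Qrsl1 at -0.49 and -0.54, and Mtfmt at 0.15, called higher, and 0.11, not called.

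The cytosolic elongation factors, 5 of 5, were called lower, beside 40.5% of all genes tested, with a median of -0.68. Eef1a1, which carries charged tRNA to the ribosome, averaged 7118 ± 51.5 CPM in K68R cells and 11400.0 ± 116 CPM in WT cells (SD, n = 3 each), 1.60-fold lower. Eef1g, a subunit of its exchange factor, was 1.39-fold lower, and Eef2, which moves the ribosome along, 1.10-fold lower. All 3 stayed lower with the offsets, but their order changed, with Eef1a1 at -0.28 and -0.33, Eef1g at -0.10 and -0.24, and Eef2 at -0.91 and -1.14. The mitochondrial elongation factors were lower in 4 of 4, with a median of -0.40. Tufm averaged 118 ± 1.59 CPM in K68R cells and 134 ± 1.95 CPM in WT cells, Gfm1 62.8 ± 3.95 CPM in K68R cells and 100.2 ± 2.43 CPM in WT cells, and Tsfm 24.9 ± 0.668 CPM in K68R cells and 33.2 ± 0.760 CPM in WT cells. With the offsets Tufm was at -0.17 and -0.24, Gfm1 at -0.36 and -0.56, and Tsfm, not called, at 0.08 and -0.02.

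Of 10 genes that mature mitochondrial tRNA 7 were called lower and 3 called higher (median -0.38), beside 40.5% lower and 40.8% higher of all genes tested. With exon length and GC offsets the counts were the same but not the genes, and the median was -0.21. Elac2 (0.35) and Gtpbp3 (0.66) were then called lower, at -0.12 and -1.35. With transcript length and GC offsets 6 were lower, 1 higher and 3 not called (median -0.19). Hsd17b10 (-0.42) and Trmt10c (-0.35), which are subunits of mitochondrial RNase P, were called higher at 0.12 and 0.10 with exon length and GC offsets, and neither was called with transcript length and GC offsets, and Pus1 (-0.24), a pseudouridine synthase, stayed lower at -0.51 and -0.61. Of 5 proofreading and related enzymes 4 were lower and 1 higher (median -0.45). The higher gene was Tars3, a further threonyl-tRNA synthetase that is not among the 35 members. Tars3 averaged 13.0 ± 0.71 CPM in K68R cells and 9.77 ± 1.41 CPM in WT cells (SD, n = 3 each). It was called higher at 0.42, and also with the offsets (0.63 and 0.61). With either of the offsets 2 of the 5 enzymes were lower, 1 higher and 2 not called, with medians of 0.01 and -0.09. Aarsd1, an editing enzyme for mischarged alanyl-tRNA, averaged 19.3 ± 0.375 CPM in K68R cells and 36.1 ± 1.84 CPM in WT cells, 1.87-fold lower, and was -0.83 with both offsets.

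A list of 7 genes joined the sensing of uncharged tRNA with the eIF2 kinases and the alpha subunit of eIF2. Of these, 4 were called higher and 3 lower, beside 40.8% higher and 40.5% lower of all genes tested. The median of the list was 0.24, which became -0.07 and -0.09 with the offsets. The 3 lower genes were the kinases Eif2ak1 and Eif2ak2 and the subunit Eif2s1. Eif2ak4, which encodes GCN2, was called higher at 0.63, and also with the offsets (0.39 and 0.15). Gcn1, the ribosome-bound activator of GCN2, had 174, 175 and 178.5 CPM in K68R cells and 12.4, 12.1 and 11.4 CPM in WT cells, 14.7-fold higher (3.88 ± 0.04 SE). It is among the long GC-rich genes, with 8691 exonic bases and 58.6% GC, and lay at 1.07 with exon length and GC offsets and -0.09 with transcript length and GC offsets. Eif2s1, the alpha subunit of eIF2, averaged 175 ± 6.04 CPM in K68R cells and 286 ± 3.36 CPM in WT cells, 1.64-fold lower, and Eif2ak1, a kinase for it, 51.6 ± 1.29 CPM in K68R cells and 62.3 ± 1.95 CPM in WT cells, 1.21-fold lower (SD, n = 3 each). With the offsets Eif2s1 was at -0.31 and -0.36, and Eif2ak1 at -0.07, not called, and -0.40.

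Atf4 had 216, 209.5 and 219.7 CPM in K68R cells and 458, 458 and 442 CPM in WT cells. The transcript was 2.11-fold lower (-1.07 ± 0.02 SE, edgeR adjusted p = 2.52e-52), and -0.85 and -0.95 with the offsets. ATF4 is mostly controlled at translation, which transcript counts do not read. Of the 7 genes for ATF4 and its partners 4 were lower and 3 higher (median -0.39), beside 40.5% lower and 40.8% higher of all genes tested. Atf5 averaged 117 ± 2.45 CPM in K68R cells and 152.5 ± 2.74 CPM in WT cells, and Cebpb, a dimer partner, 71.2 ± 2.54 CPM in K68R cells and 34.9 ± 1.48 CPM in WT cells. Cebpb was called higher at 1.03, and called lower at -0.13 and -0.25 with the offsets, and Atf5 was -0.39, and -1.20 with both.

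Of 25 other known ATF4 targets in amino acid synthesis, transport and the stress response 17 were lower, 6 higher and 2 not called, with a median of -0.52, and with exon length and GC offsets 20 were lower and 5 higher (median -0.80). Phgdh, the first enzyme of serine synthesis, averaged 224 ± 0.717 CPM in K68R cells and 307 ± 0.121 CPM in WT cells (SD, n = 3 each), 1.37-fold lower. Slc38a2, an amino acid transporter, was 1.36-fold lower, and Eif4ebp1, an inhibitor of translation initiation, 1.37-fold lower. With the offsets Phgdh was at -0.59 and -0.73 and Slc38a2 at -0.21 and -0.28, whereas Eif4ebp1 was called higher at 0.08 with exon length and GC offsets (edgeR adjusted p = 4.46e-03) and lower at -0.15 with transcript length and GC offsets. The direction of most of these genes was thus that of the cytosolic synthetases, beside 40.5% of all genes tested that were lower.

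**Figure D5:**
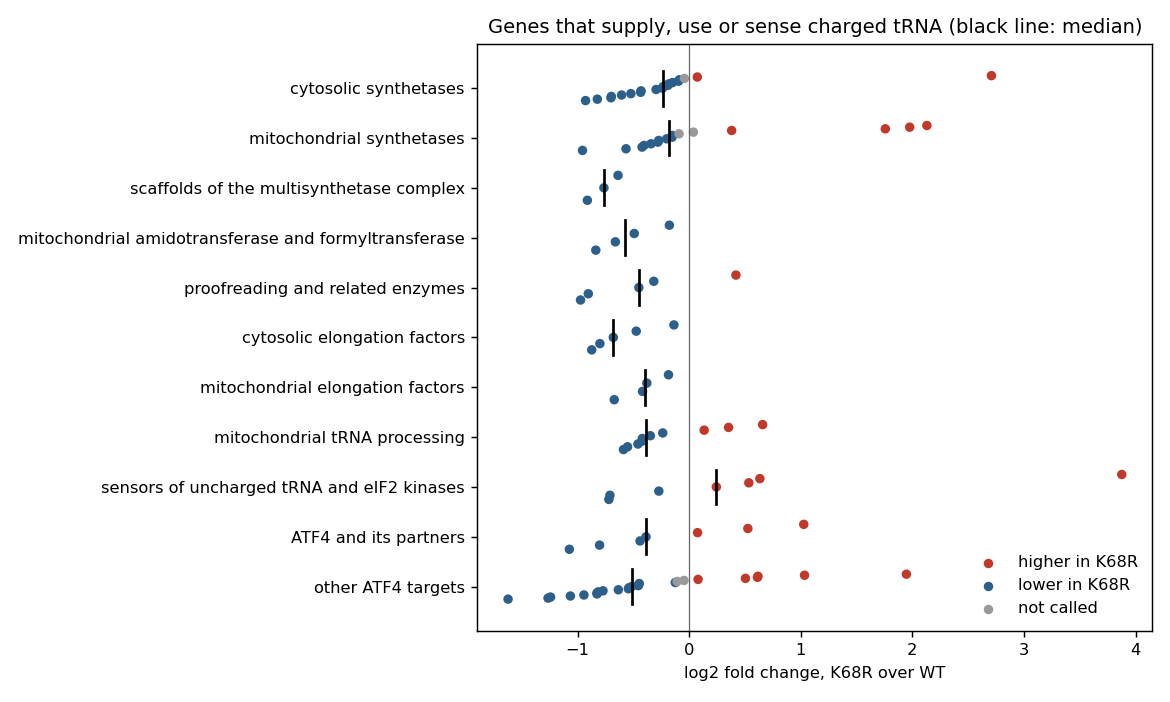
Log2 fold change, K68R over WT, of each gene in 11 lists, with red for called higher, blue for called lower, grey for not called and a black line for the median. The scaffold and elongation factor lists lie wholly below 0, while the list of sensors and eIF2 kinases includes Gcn1 at 3.88.

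Set beside the promoters printed above, members with and without the motif overlapped in fold change. The 5 cytosolic members with TGATGNAA in the window (Aars1, Gars1, Iars1, Tars1 and Yars1) had a median log2 fold change of -0.18, from -0.43 to 0.07. The 7 without it in the window (Eprs1, Farsa, Farsb, Kars1, Mars1, Qars1 and Sars1) had a median of -0.24, from -0.93 to -0.10. Among the other ATF4 targets 7 of 20 windows held the motif (35%). No test was made of this difference. The windows of Cars1, Hars1, Lars1, Nars1, Rars1, Vars1 and Wars1 were not analysed here.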

How the data were processed

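Poly(A) RNA of 6 mouse embryonic fibroblast libraries was sequenced after preparation with a stranded kit, per the labels' protocols. The submitters' processing notes name build mm39, HISAT2 2.2.1 and featureCounts 2.0.6. The deposited values are unnormalized counts, as whole read pairs assigned to the RefSeq exons of each gene. Per the file headers, no strand option was set and multi-mapped reads were not counted, so overlapping genes can share or lose reads.

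Counts were analysed with edgeR 4.0.16 in R 4.3.3: filterByExpr, TMM and the robust quasi-likelihood F test over all 6 libraries, with Benjamini-Hochberg adjustment over 16730 genes and calls under 0.05. CPM used TMM library sizes, and ratios used log2 CPM with a prior count of 2. Offsets came from a smooth surface fitted per library with mgcv 1.9.3 over length and GC content. GC values were computed on GENCODE M21 transcripts (GRCm38), joined by symbol (36310 genes) or older symbol (609 genes). The fits were also run on simulated counts. The bias planted there was linear in log length and GC content, so that run cannot show whether the offsets suit single members here.

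The members and lists were chosen with earlier results of these data known. All members are named, and of most other lists up to 3 genes with the highest level per exonic length. Further genes are named for some lists. Pairs of libraries within a genotype differed by more than sampling noise, so all 6 were counted. Floors cover counting error only. Alternatives were other scalings, filters, DESeq2 1.42.0, limma-voom 3.58.1, a replicate block, a 1.5-fold bound, a stricter threshold and leaving out each library.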

Additional observations from a re-analysis of the deposited data

How the results depend on the processing

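Of 662 values of single members under the alternatives, 576 kept their direction and side of the threshold, 46 lost a call (23 of them under the 1.5-fold bound), 9 gained one and 31 turned direction, in 9 members. Against 1.5-fold, 4365 genes were higher and 2490 lower, with 1 higher and 4 lower cytosolic and 1 lower mitochondrial members. Cytosolic members called higher were 1 under upper quartile scaling, no filter, offsets for exon length alone, exon length and GC offsets, and the replicate block with those offsets, and 0 under transcript length and GC offsets. Mitochondrial members called higher were 2 with exon length and GC offsets, with or without the replicate block, and 1 with transcript length and GC offsets. The cytosolic median was -0.35 (upper quartile), -0.58 (exon length alone), -0.36 (exon length and GC, with or without the block) and -0.40 (transcript length and GC). The mitochondrial median was -0.29 (upper quartile), -0.22 (no filter), -0.52 (exon length alone), -0.31 (exon length and GC), -0.32 (the same with the block) and -0.29 (transcript length and GC). The 1.5-fold bound calls fewer genes by construction. For the others the cause was not tested.

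Leaving out 1 library gave 6760 to 6849 higher and 6643 to 6802 lower genes, 1 to 2 higher and 15 to 17 lower cytosolic members, 4 higher and 7 to 10 lower mitochondrial members, medians of -0.27 to -0.20 (cytosolic) and -0.21 to -0.17 (mitochondrial), and 10 pairs with a lower ratio each time.

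Turned directions were as follows. Aars1 was -0.0417 (upper quartile), -0.57 (exon length alone), -1.96 (exon length and GC, with or without the block) and -2.39 (transcript length and GC). Ears2 was -0.077 (upper quartile), -0.0007 (no filter), -0.72 (exon length alone), -2.60 (exon length and GC, with or without the block), -0.45 (transcript length and GC), and -0.0266 to 0.0721 with 1 library left out (below 0 without K68R replicate 3 or WT replicate 3). With exon length and GC offsets Gars1 was 0.0572 (0.0569 with the block), Qars1 0.0236 (0.0236), Yars1 0.0262 (0.0256), Mars2 0.22 (0.22), Vars1 -0.34 (-0.34), Sars2 -0.41 (-0.41) and Vars2 -0.0631 (-0.0529). With transcript length and GC offsets Gars1 was 0.0219, Vars1 -0.25, Sars2 -0.25 and Vars2 -0.66.

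The labels do not say whether libraries with the same replicate number are paired. The deviations of same-numbered libraries from their group means correlated at 0.032, 0.0134 and 0.0768. K68R replicates 1 and 3 correlated best with the WT library of the same number, and K68R replicate 2 with WT replicate 1. Deviations within a group of 3 libraries are not independent, so these values cannot decide whether the libraries are paired. With the replicate block alone 6804 genes were higher and 6763 lower, against 6833 and 6780, with the same counts of members called. Among the least abundant members, Pars2 and Ears2, depth limits the precision. The transcript length and GC offsets and the removal of Vars1 and of Lars2 were chosen after seeing the data.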
